A study of Ovis aries with 3 samples.

Results

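The RNA examined here is 5S ribosomal RNA carried by extracellular vesicles, small membrane-enclosed particles shed by cells, of sheep (Ovis aries) conceptuses at day 14 of pregnancy. Its members are the rows of the deposited table described as 5S ribosomal RNA, which number 300 of 25197 rows and carry the symbols 5S_rRNA_1 to 5S_rRNA_300. The number is a running suffix and does not rank the copies. There were 3 libraries in 1 group, with no control group and no treatment: intact conceptuses were cultured for 24 h in medium with serum depleted of exosomes, and vesicles were precipitated from the filtered medium with ExoQuick-TC. The labels name neither breed nor animal and do not say which library came from which conceptus, so part of the spread over libraries may be technical. The conceptuses were kept in dishes outside the uterus, and no RNA of the conceptus cells themselves was analysed here. The values are taken as scaled for library depth, so in such bulk samples they show neither vesicle number nor RNA per vesicle.

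5S ribosomal RNA is the smallest RNA of the large ribosomal subunit. It is transcribed by RNA polymerase III with the dedicated zinc finger factor TFIIIA, is held by the La protein after synthesis, and enters the ribosome as a particle with the ribosomal proteins RPL5 and RPL11. Mammalian genomes hold functional 5S genes in tandem arrays and many dispersed 5S-like copies, a large part of which are thought to be pseudogenes. The RNA has no poly(A) tail, whereas the SMART-Seq v4 kit used here primes on such tails. The copies have similar sequences, and whether the authors kept reads that match several copies is not given in the sources used here, so the division of reads among copies is uncertain. The sequences and genome positions of the copies were not used here.

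The 5S copies together reached similar sums in the 3 libraries. The summed value was 169.2, 214.4 and 179.1 in libraries 1, 2 and 3, or 188 ± 23.8 (SD, n = 3), in RPKM-type units, which are reads scaled for gene length and library depth. The highest of these sums was 1.27 times the lowest. The summed value of all rows was 17480.7, 40060.3 and 9531.8, and there the highest was 4.20 times the lowest. The 5S share of the summed value of a library was therefore uneven, at 0.968%, 0.535% and 1.88%, or 1.13% ± 0.686 (SD, n = 3). This is a share of values scaled for gene length and not a share of reads. Library 2 had the highest 5S sum and the lowest 5S share, and library 3 had the highest share.

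One copy, 5S_rRNA_296 (ENSOARG00000022311), held a large part of the sum in each library. It stood at 53, 118.3 and 60.6 in libraries 1, 2 and 3, with a mean of 77.3 ± 35.7 (SD, n = 3). This was 31.3%, 55.2% and 33.8% of the 5S sum, or 40.1% ± 13.1 (SD, n = 3). It was the highest 5S copy in all 3 libraries, and its value was 8.83, 26.3 and 6.52 times that of the next copy in libraries 1, 2 and 3. Among all 25197 rows it ranked 39th, 49th and 7th. Its share of the summed value of all rows, which is not a share of reads, was 0.303%, 0.295% and 0.636%. The library in which this copy was highest thus depended on the scale, being library 2 by deposited value and library 3 by share of the summed value.

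**Figure D1:**
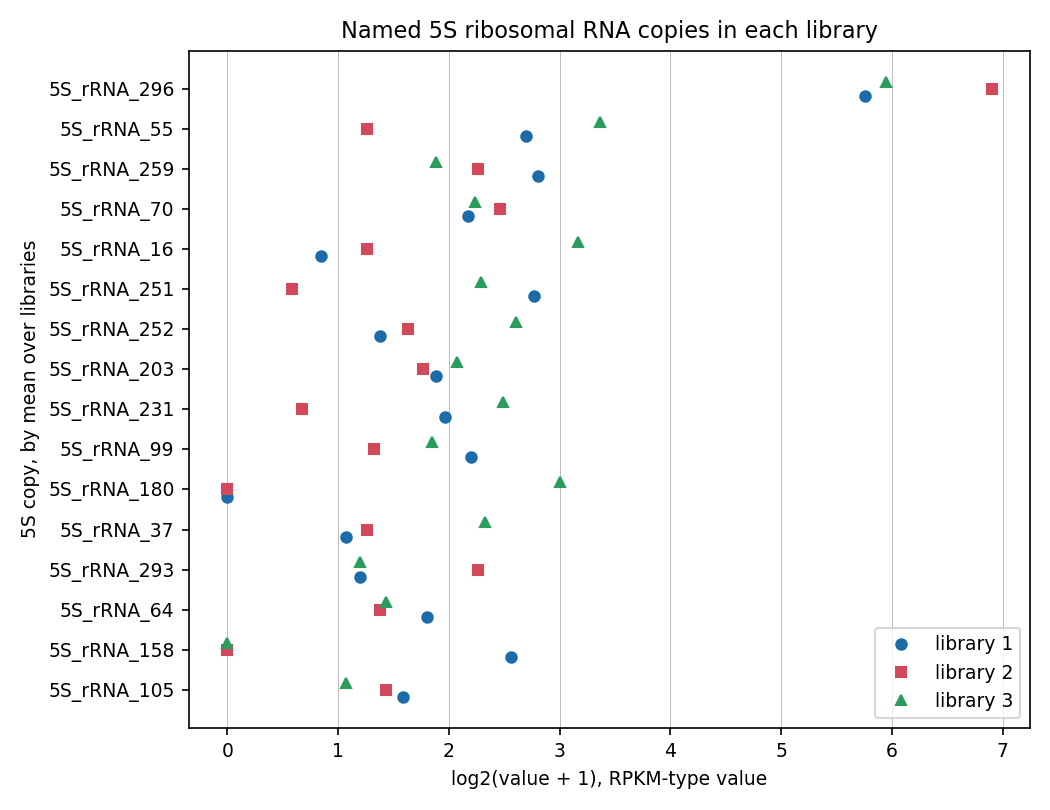
Value of 16 named 5S copies in each library, as log2(value + 1) on the horizontal axis, with copies ordered by mean on the vertical axis and 1 symbol per library. 5S_rRNA_296 lies to the right of every other copy in all 3 libraries, at 53, 118.3 and 60.6, and no other copy passes 9.3.

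The remaining sum was thinly spread. The other 299 copies summed to 116.2, 96.1 and 118.5 in libraries 1, 2 and 3, or 110 ± 12.3 (SD, n = 3), so that library 2 was the lowest once 5S_rRNA_296 was set aside. The 9 copies that followed it by mean held 19.1%, 8.49% and 24.1% of the 5S sum, and the 20 after those 17.3%, 11.1% and 22.8%. The 270 copies below these held 32.3%, 25.2% and 19.3%. Together the 10 copies with the highest means made up 50.5%, 63.7% and 57.9%, or 57.3% ± 6.61 (SD, n = 3). Counted from the top within each library, 8, 1 and 5 copies sufficed for 50% of the sum, and 65, 55 and 37 for 90%.

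The effective number of copies, taken as the inverse Simpson index, is the number of equally abundant copies that would give the same concentration. It was 9.32, 3.25 and 7.83 in libraries 1, 2 and 3, or 6.80 ± 3.16 (SD, n = 3). Without 5S_rRNA_296 it was 51.4, 60.8 and 33.0. Library 2 was thus the most concentrated with that copy and the most even without it.

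**Figure D2:**
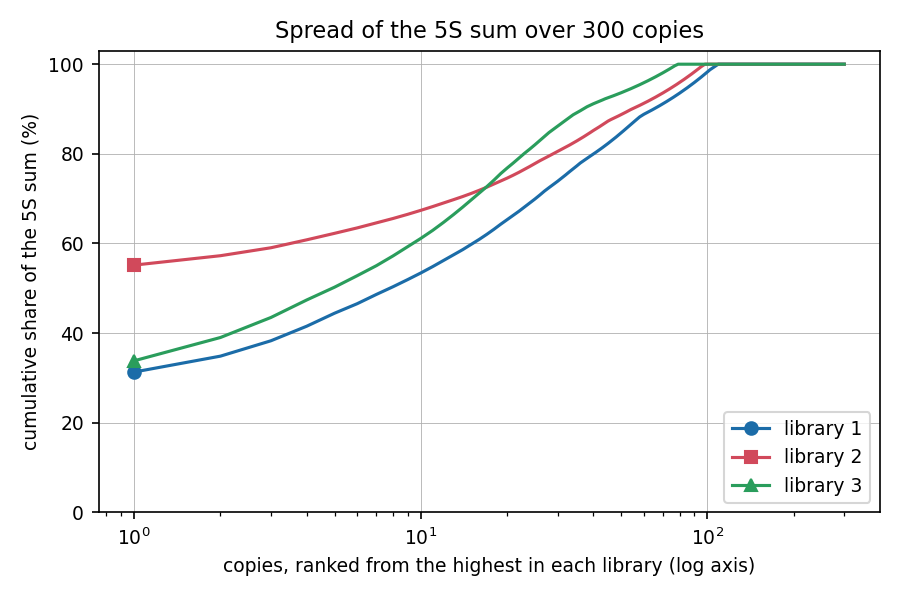
Cumulative share of the 5S sum in percent against the number of copies, ranked from the highest within each library, on a log axis, with 1 line per library. The lines start at 31.3%, 55.2% and 33.8% with the highest copy and reach 100% at 109, 98 and 79 copies, beyond which copies are listed at 0.

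Most copies were listed at 0 or at a value of very few reads. Values above 0 were found for 109, 98 and 79 copies in libraries 1, 2 and 3, or 36.3%, 32.7% and 26.3%, against 60.4%, 65.9% and 52.0% of all rows. As many as 136 of 300 copies (45.3%) were listed at 0 in all 3 libraries, against 21.6% of all rows. A further 81 copies (27.0%) were above 0 in exactly 1 library, against 17.3% of all rows, and 44 (14.7%) in 2, against 22.3%. Another 39 (13.0%) were above 0 in all 3, against 38.8% of all rows. The 5S rows are short and share a family, and these rates were not matched on length.

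The low values fell on steps, and a step was taken as the value of 1 read. The libraries were sequenced as read pairs, and the steps cannot tell 1 read from 1 pair. All read numbers below rest on this reading. In the 5S copies the step was estimated at 0.392, 0.494 and 0.408 in libraries 1, 2 and 3, and 80.5%, 81.6% and 78.4% of the low values lay within 0.2 of a whole multiple of it. The estimate assumes nearly one length for all copies. By this measure library 1 had 1.26 times and library 3 had 1.21 times the depth of library 2. Of the copies above 0, 51, 53 and 41 held about 1 read, which is 46.8%, 54.1% and 51.9% of them. About 3 reads or more were found for 36, 26 and 34 copies. The 5S family as a whole came to about 431, 434 and 439 reads, of which 5S_rRNA_296 took about 135, 239 and 149 and the other copies 296, 194 and 291.

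**Figure D3:**
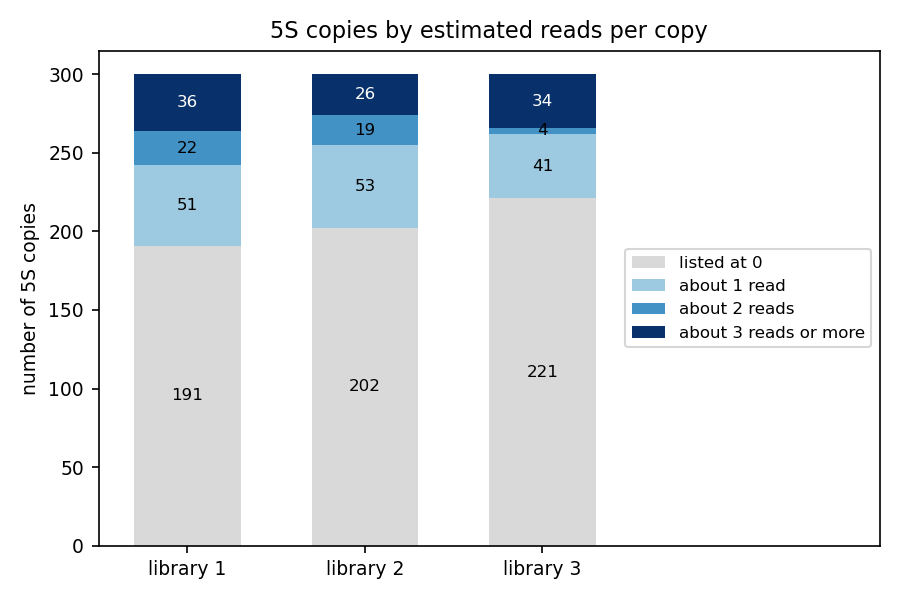
Number of 5S copies in each library by estimated reads per copy, as stacked bars that sum to 300. The part listed at 0 holds 191, 202 and 221 copies in libraries 1, 2 and 3, and the part with about 3 reads or more holds 36, 26 and 34.

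Values of at least 1 counted as detection. This was reached by 36, 40 and 34 copies in libraries 1, 2 and 3 (12%, 13.3% and 11.3%, against 9.37%, 13.6% and 7.88% of all rows). At the steps above, a value of 1 needed about 2 reads in library 2 and 3 reads in the other libraries. In all 3 libraries 11 copies were detected, or 3.67%, against 3.89% of all rows, so the 5S rows were detected at a rate near that of the table as a whole. Another 16 copies (5.33%) were detected in 2 libraries and 45 (15.0%) in 1. Among copies of the U6 small nuclear RNA family, described below, these shares were 5.04% and 12.6%. They were not counted over all rows. A further 92 copies were above 0 somewhere without reaching 1 anywhere. The 289 copies not detected in all 3 libraries include those 136 listed at 0 throughout.

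The detected copies below 5S_rRNA_296 differed in how evenly they stood over the libraries. The steadiest were 5S_rRNA_70 at 3.5, 4.5 and 3.7 in libraries 1, 2 and 3, and 5S_rRNA_203 at 2.7, 2.4 and 3.2. Their SDs of log2(value + 1) were 0.15 for both, the lowest among the 11. The copies 5S_rRNA_64 (2.5, 1.6 and 1.7), 5S_rRNA_105 (2, 1.7 and 1.1) and 5S_rRNA_99 (3.6, 1.5 and 2.6) followed, with SDs of 0.23, 0.26 and 0.44. For these 5 copies the highest library was at most 2.40 times the lowest. 5S_rRNA_70 was also, with 5S_rRNA_296, 1 of 2 copies among the 10 highest of every library.

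The widest spread among detected copies was that of 5S_rRNA_55, at 5.5, 1.4 and 9.3 in libraries 1, 2 and 3. Its SD of log2(value + 1) was 1.07, and library 3 was 6.64 times library 2. The copies 5S_rRNA_37 (1.1, 1.4 and 4) and 5S_rRNA_252 (1.6, 2.1 and 5.1) were also highest in library 3, with SDs of 0.67 and 0.65. In 5S_rRNA_293 library 2 was highest, at 1.3, 3.8 and 1.3 (SD of log2 0.61). 5S_rRNA_259 lay between, at 6, 3.8 and 2.7 (SD of log2 0.46), and was highest in library 1.

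Some copies with high values in 1 or 2 libraries fell below 1 in another, and so were not detected in all 3. 5S_rRNA_16 stood at 0.8, 1.4 and 8 in libraries 1, 2 and 3. 5S_rRNA_251 stood at 5.8, 0.5 and 3.9 and 5S_rRNA_231 at 2.9, 0.6 and 4.6, both with their lowest value in library 2. 5S_rRNA_180 was listed at 0 in libraries 1 and 2 and stood at 7 in library 3. 5S_rRNA_158 was the reverse, at 4.9 in library 1 and listed at 0 in the others. About 17 reads lay behind the value of 5S_rRNA_180 and about 12 behind that of 5S_rRNA_158.

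The counting intervals of the 3 libraries overlapped for 9 of the 11 detected copies and for 66 of the 72 copies at 1 or more in any library. Overlap was not counted for U6 or for all rows, so these counts cannot be read as particular to 5S. The 72 copies entered by their highest library. The 92 copies that never reached 1 rest on too few reads for their intervals to separate. Exact Poisson intervals at 95% were computed from the estimated reads of each copy. They cover counting error only, and reads amplified by PCR without molecular identifiers are not independent molecules. For 5S_rRNA_296 the interval was 44.4 to 62.7 in library 1, 103.6 to 134.1 in library 2 and 51.4 to 71.3 in library 3, so that of library 2 overlapped neither of the others. The intervals of 5S_rRNA_55 were 3.00 to 9.21, 0.306 to 4.33 and 5.95 to 14.1, and those of libraries 2 and 3 did not overlap. The remaining copies without a common overlap were 5S_rRNA_16, 5S_rRNA_251, 5S_rRNA_180 and 5S_rRNA_158. For the steadiest copy, 5S_rRNA_70, about 9 reads in each library gave intervals of 1.61 to 6.70, 2.03 to 8.44 and 1.68 to 6.97. At this depth differences within such intervals were not detectable.

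The same copies were found again in part. Of the copies at 1 or more in library 1, 17 of 36 (47.2%) were also at 1 or more in library 2, which was 42.5% of the 40 of that library. Libraries 1 and 3 shared 16 such copies (44.4% and 47.1% of each list), and libraries 2 and 3 also shared 16 (40.0% and 47.1%). In libraries 1, 2 and 3, 7, 10 and 7 of the copies at 1 or more were listed at 0 in both other libraries. The 10 highest copies of the 3 libraries were 20 different copies in all. Across all 300 copies Spearman's rho was 0.44 for libraries 1 and 2, 0.42 for 1 and 3 and 0.38 for 2 and 3, values that rest largely on the copies listed at 0 in both. Over copies above 0 in at least 1 library of the pair rho was 0.08, -0.02 and -0.06 (n = 147, 134 and 130 copies). That set leaves out copies listed at 0 in both libraries and keeps those listed at 0 in 1, which lowers rho. It therefore cannot show a lack of agreement. Over copies above 0 in both libraries rho was 0.47, 0.62 and 0.49 (n = 60, 54 and 47 copies). Across all U6 copies rho was 0.51 for libraries 1 and 2, 0.53 for 1 and 3 and 0.44 for 2 and 3. These are descriptions across copies, which share library and depth.

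The detected 5S copies had a smaller median spread over libraries than the detected rows of the whole table, and one close to that of U6. The median SD of log2(value + 1) was 0.46 over the 11 detected 5S copies, 0.41 over 47 detected U6 copies and 0.78 over all 981 detected rows, a description with no test. The 5S median was 0.37, 0.26 and 0.30 without library 1, 2 and 3. The highest library was at the median 2.23 times the lowest for the 5S copies and 3.68 times for all detected rows. Library 2 held the highest value of 736 of 981 detected rows (75.0%), of 3 of the 11 5S copies (5S_rRNA_296, 5S_rRNA_70 and 5S_rRNA_293) and 10 of the 47 U6 copies. The level of 5S_rRNA_296 was matched by 23 other detected rows whose mean of log2(value + 1) lay within 0.5 of its own, a window chosen after the values were seen. Its SD of 0.61 compared with a median of 1.30 over those rows, and 1 of the 23 had a smaller SD. Levels differ between these sets, and their part in the difference was not tested.

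**Figure D4:**
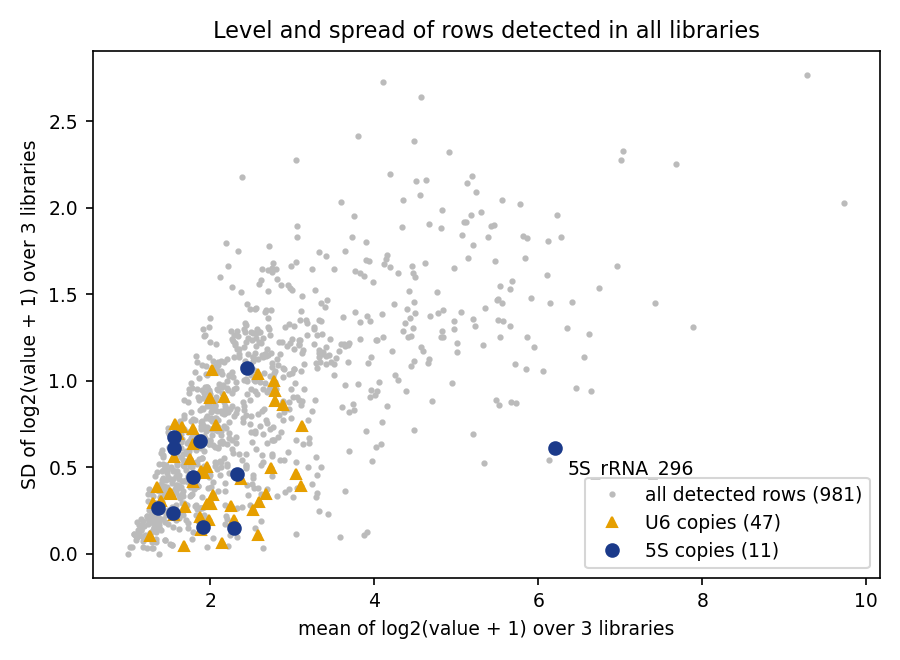
Mean of log2(value + 1) over 3 libraries on the horizontal axis against its SD on the vertical axis for the 981 rows detected in all 3 libraries, with U6 and 5S copies marked. 5S_rRNA_296 has an SD of 0.61 at a level where most rows lie above it. The other 10 5S copies lie among the U6 copies, except 5S_rRNA_55, whose SD of 1.074 is just above the highest of U6 (1.065).

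The U6 family of small nuclear RNA genes, short and repeated like 5S and also transcribed by RNA polymerase III, served as a comparison with 1012 rows. The share of copies at 1 or more was 12.8%, 11.2% and 12.6% for U6 in libraries 1, 2 and 3, and the 5S minus U6 difference was -0.85, 2.17 and -1.31 percentage points (mean 0.0022 ± 1.89, SD, n = 3). By a two-sided exact permutation test that flips the sign of each library's difference, p was 1. The 10% of copies with the highest means held 67.7%, 74.8% and 80.7% of the 5S sum and 59.6%, 62.7% and 68.9% of the U6 sum. This difference was 10.6 ± 2.21 percentage points and above 0 in 3 of 3 libraries (SD, n = 3; exact permutation p = 0.25, the smallest that 3 libraries allow). Without 5S_rRNA_296 it was -7.01 ± 10.6 points (SD, n = 3; exact permutation p = 0.5) and below 0 in libraries 1 and 2, so its direction rested on that copy. The copy was set aside because it was the highest in these values, while U6 kept its own leading copy. A fall in the 5S share was thus fixed by the removal, and this p-value gives no support.

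The mean value per copy followed the same pattern. It was 0.564, 0.715 and 0.597 for 5S in libraries 1, 2 and 3 and 0.435, 0.317 and 0.494 for U6, a difference of 0.21 ± 0.163 (SD, n = 3; exact permutation p = 0.25). It was 0.116 without library 2. Without 5S_rRNA_296 the 5S mean was 0.389, 0.321 and 0.396, and the difference from U6 was -0.047 ± 0.051 (SD, n = 3; exact permutation p = 0.5). A fall was again fixed by setting the highest copy aside on the 5S side only. The 299 other 5S copies and the U6 copies both had their lowest mean in library 2, where the mean of all rows was highest. In the snoRNA rows, which guide the modification of ribosomal RNA, the mean was 0.317, 0.258 and 0.362. For the RNA of the signal recognition particle, which targets ribosomes to the endoplasmic reticulum, it was 1.81, 2.15 and 3.06 over 19 rows.

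**Figure D5:**
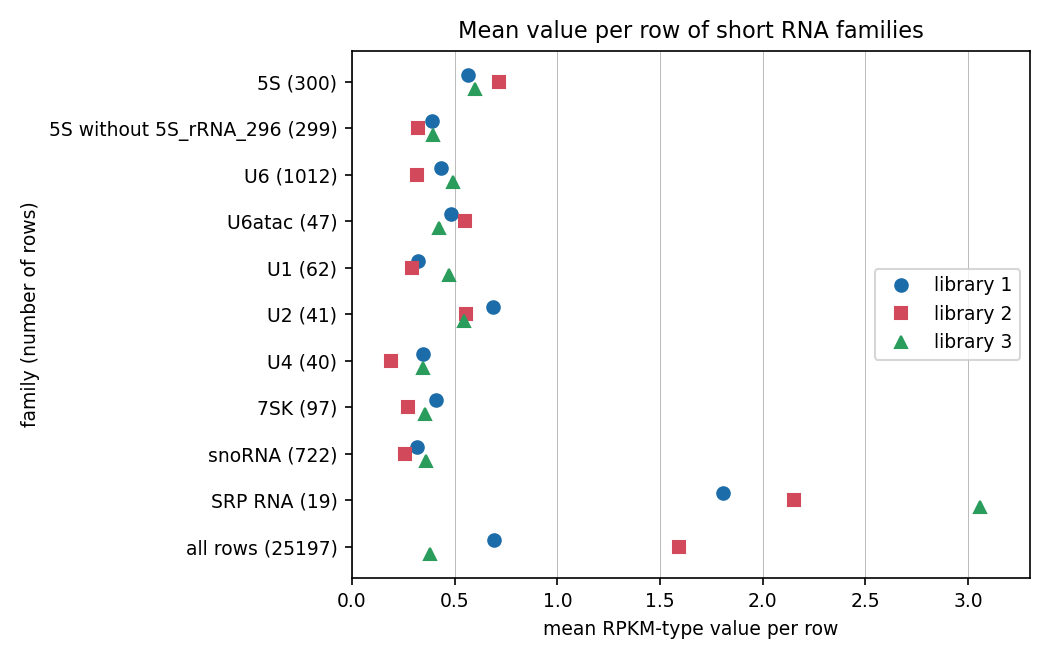
Mean RPKM-type value per row for 5S with and without 5S_rRNA_296, for other families of short RNAs and for all rows, with 1 symbol per library and the number of rows in parentheses. Setting 5S_rRNA_296 aside moves the 5S mean of library 2 from 0.715 to 0.321, close to the 0.317 of U6.

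A leading copy was found in other small families as well. The highest row by mean took 40.1% ± 13.1 of the 5S sum, 37.2% ± 4.24 of the U2 sum over 41 rows, 22.3% ± 5.64 of the U1 sum over 62 rows and 1.95% ± 0.849 of the U6 sum (SD, n = 3). The families differ in size, and the share of a leading row was not tested between them. Among other ribosomal RNAs the table held 5 rows of 5.8S, which pairs with 28S in the large subunit, and no row was described as 18S or 28S. 5_8S_rRNA_5 stood at 5.8, 9 and 5.3 and 5_8S_rRNA_2 at 0.3, 5.2 and 0.7. The rows 5_8S_rRNA_3 and 5_8S_rRNA_4 were at 0.4 in library 2 and listed at 0 elsewhere, and 5_8S_rRNA_1 was listed at 0 throughout. As with 5S, 1 copy led the family in every library, and library 2 held its highest value.

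Messenger RNAs of the 5S pathway mostly fell short of the detection value in at least 1 library. Of 37 symbols listed for it, 32 had a row, and 3 of these were detected in all 3 libraries (9.38%, against 3.89% of all rows). In libraries 1, 2 and 3, 8, 14 and 5 of the 32 reached 1, which is 25.0%, 43.8% and 15.6%, against 9.37%, 13.6% and 7.88% of all rows. The median of the means was 0.517 over the list and 0.133 over all rows. TFIIIA, encoded by GTF3A, which binds the inside of the 5S gene, stood at 0.3, 1.4 and 1.1. None of the 6 TFIIIC genes, whose products recruit the initiation factor TFIIIB, passed 0.8. Of the TFIIIB genes, BDP1 stood at 0.8, 1.8 and 0.4, TBP at 0.4, 0.4 and 0, and BRF1 was listed at 0.

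The subunits of RNA polymerase III itself gave 0 of 8 rows detected, against 3.89% of all rows. With so few rows and so low a share, this count cannot be read as particular to polymerase III. CRCP had the highest mean among them, at 2.2, 3.3 and 0.6, followed by POLR3K at 1.5, 1.2 and 0. The catalytic subunit POLR3A and POLR3E were listed at 0. POLR3C (0.8, 0.9 and 0), POLR3GL (0.5, 0.3 and 0.1), POLR3G (0, 0.3 and 0.1) and POLR3B (0.2, 0.1 and 0.1) were low in all 3 libraries.

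Of the 7 subunits shared with other polymerases, POLR1D (2.6, 7.7 and 1.4) and POLR2H (1, 3.9 and 4.1) were detected. That is 28.6%, against 3.89% of all rows. The contrast with the subunits of RNA polymerase III rests on few rows and was not tested. POLR2E (1.2, 7.2 and 0), POLR2F (1.6, 5.4 and 0) and POLR2K (3.6, 4.9 and 0) were listed at 0 in library 3, POLR1C stood at 0.1, 2.5 and 0.7, and POLR2L was listed at 0. The polymerase III repressor MAF1 stood at 0, 1.5 and 0.1. SSB, which encodes La, stood at 0.8, 8.6 and 0.6. Of the genes in this paragraph with a value above 0, all but POLR2H had their highest value in library 2, as did most detected rows of the table.

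Of the ribosomal proteins that bind 5S, RPL11 stood at 29.8, 72.1 and 9.4 in libraries 1, 2 and 3, or 37.1 ± 32.0 (SD, n = 3), and the RPL5 row was listed at 0 in all 3. The listing at 0 was not read as absence of RPL5 RNA, and its cause was not tested. Both RPL11 and 5S_rRNA_296 had their highest value in library 2, but RPL11 was lowest in library 3 and 5S_rRNA_296 in library 1. The assembly factors RRS1 (0.7, 0.8 and 0.8), BRIX1 (0.3, 2.4 and 1) and HEATR3 (0.9, 0.5 and 0.1) were not detected in all 3. The 5 listed symbols without a matched row, POLR3D, POLR3F, RPF2, SYO1 and MDM2, were not analysed here.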

How the data were processed

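The libraries were made from total RNA with SMART-Seq v4 and sequenced as paired-end reads of 50 bp on an Illumina HiSeq, per the labels' protocols. The deposited table does not name its unit. Its values, rounded by the authors to 1 decimal, were taken as RPKM (FPKM would look alike), because short genes stepped by more than long ones. Per the submitters' processing notes, reads were processed against Oar_v3.1. Aligner, counting program and annotation release were not given in the sources used here. In the deposited table the mean column matched the 3 columns to within 0.0667. Library numbers follow sample order, and columns were matched by title. Of the 5S copies above 0, libraries 1 and 2, 1 and 3, and 2 and 3 had the same value in 0, 16 and 1 cases, so no column repeated another.

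Members and lists were chosen with earlier results of these data known. Named copies were the 10 with the highest means, the copies detected in every library (at least 1 each), the 5 steadiest and 5 most variable of these by the SD of log2(value + 1), the 5 others with the highest single value, all 5.8S rows and the pathway list, except 1 gene with values that is not reported here. The value of 1 read was fitted by least squares to whole multiples up to 4.5 steps. The fit was tested on simulated data built with such steps and nearly one length, so the simulation could not test those assumptions. Python 3.11.15, NumPy 2.4.6, pandas 2.3.3 and SciPy 1.17.1 were used. No count model was fitted, since gene lengths were not used here. The exact permutation p-values concern only these 3 libraries and are 0.25 whenever all 3 differences have the same sign. Alternatives were other detection values, pseudocounts, scalings, rankings and libraries left out.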

Additional observations from a re-analysis of the deposited data

How the results depend on the processing

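No pairing of libraries between groups was possible because the 3 libraries form 1 group and their numbers follow the order of the labels. Only the 5S minus U6 differences were paired, within each library. Of 49 alternatives over 10 results, 38 left the value within the spread between replicates, the count within 1.5 times or the direction as it was. The alternatives without 5S_rRNA_296, except that for the effective number, those in steps and the results on mean value per copy were chosen after seeing the data. Without 5S_rRNA_296 the 10 highest copies held 29.7% of the sum, the effective number was 48.4, the 5S minus U6 difference in the share of the highest 10% was -7.01 percentage points, and that in mean value per copy was -0.047. By the exponential of the Shannon entropy the effective number was 24.6. The number of copies detected in all 3 libraries was 20 at a detection value of 0.5 and 4 at 2, between 16 and 17 with 1 library left out (fewer samples have to pass), and 11 at about 3 reads or more. Over copies above 0 in both libraries the mean rho was 0.52 against 0.41. The 5S minus U6 difference in the share of copies detected, 0.0022 percentage points, was -1.61 at a detection value of 2, and with 1 library left out it ranged from -1.08 (without library 2) to 0.661; the cause was not tested. No call could pass 0.05 with 3 libraries. Depth limits the copies below 5S_rRNA_296, since between 46.8% and 54.1% of the copies above 0 rest on about 1 read.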
